A study of Homo sapiens with 10 samples.

Results

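The 8 genes of the E2F transcription factor family, E2F1 to E2F8, were examined for summits of WDR5 and of tagged EMBOW in chromatin immunoprecipitation with sequencing (ChIP-seq). They were chosen by name from the 20037 protein-coding genes of the RefSeq table, E2F3 and E2F2 partly because earlier results had shown a very high WDR5 summit and a tagged EMBOW summit there. Summits at most 1 kb from the start or end coordinate of a gene are called gene-end summits, and all summits within 10 kb of a gene were also recorded. Either coordinate can be where transcription starts.

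WDR5 is a WD40-repeat protein shared by the complexes that methylate histone H3 at lysine 4, and EMBOW is a microprotein that the series places in its regulation. The cells were HEK293T, a human embryonic kidney line that expresses the SV40 large T antigen, a viral protein that binds the retinoblastoma family and so releases E2F from it. WDR5 was precipitated with an anti-WDR5 antibody from HEK293T cells with EMBOW knocked out (KO) and from wild-type HEK293T cells (WT). HEK293T cells with stable expression of the tagged protein EMBOW-FH were used for a precipitation with anti-FLAG beads, and the summits of tagged EMBOW are called EMBOW-F here. The sources used here do not say whether the KO cells are 1 clone or which promoter drives the tagged protein. Each group had 1 library, so no difference between genotypes could be tested. The lists do not measure EMBOW itself and therefore do not check the knockout.

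E2F proteins bind promoters of genes needed for entry into S phase. E2F1, E2F2 and E2F3 mainly activate, and they are held in check by RB until cyclin-dependent kinases phosphorylate it. E2F4 and E2F5 mainly repress together with the pocket proteins p107 and p130. E2F6 lacks the pocket-binding region and represses through Polycomb-like assemblies, among whose proteins WDR5 has been found, and E2F7 and E2F8 are atypical members that bind DNA without a DP partner and repress E2F targets, E2F1 among them.

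Promoter sequences were taken from RefSeq (GRCh38.p14) for E2F1, E2F2, E2F3, E2F4, E2F6 and E2F7. Each runs from 250 bases before the annotated start of the gene to 50 bases after it, 5′ to 3′ on the strand of the gene. The promoters of the 3 activators are shown because they share a pair of E2F-like elements close to the start. That of E2F6 is shown because the WDR5 summit of E2F6 ranked next after those of E2F3 and E2F2. The E2F6 promoter holds neither element in the forms marked here. Whether these elements relate to WDR5 was not tested. Capitals mark TTTCGCGG and TTGGCGC, with TTGGCGC extended to TTTGGCGC where the sequence allows.
E2F1, chr20:33686336-33686635, minus strand: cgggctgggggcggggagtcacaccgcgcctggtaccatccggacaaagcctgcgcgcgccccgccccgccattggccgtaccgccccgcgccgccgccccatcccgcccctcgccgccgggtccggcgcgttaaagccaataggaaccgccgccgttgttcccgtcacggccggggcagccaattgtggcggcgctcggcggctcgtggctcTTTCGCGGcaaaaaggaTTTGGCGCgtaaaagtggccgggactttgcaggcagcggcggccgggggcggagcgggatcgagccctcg
E2F2, chr1:23531184-23531483, minus strand: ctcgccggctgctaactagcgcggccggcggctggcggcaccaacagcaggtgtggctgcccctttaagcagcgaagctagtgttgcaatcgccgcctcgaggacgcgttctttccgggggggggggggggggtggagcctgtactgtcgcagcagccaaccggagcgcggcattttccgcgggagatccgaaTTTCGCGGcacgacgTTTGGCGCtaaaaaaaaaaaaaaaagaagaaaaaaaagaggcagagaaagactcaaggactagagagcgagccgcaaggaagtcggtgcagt
E2F3, chr6:20401629-20401928, plus strand: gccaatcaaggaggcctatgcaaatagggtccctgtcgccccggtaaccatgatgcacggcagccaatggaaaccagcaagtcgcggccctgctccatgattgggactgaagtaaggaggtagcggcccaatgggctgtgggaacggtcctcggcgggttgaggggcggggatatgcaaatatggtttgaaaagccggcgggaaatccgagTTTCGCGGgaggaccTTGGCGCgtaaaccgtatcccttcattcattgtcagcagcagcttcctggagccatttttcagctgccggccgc
E2F6, chr2:11466112-11466411, minus strand: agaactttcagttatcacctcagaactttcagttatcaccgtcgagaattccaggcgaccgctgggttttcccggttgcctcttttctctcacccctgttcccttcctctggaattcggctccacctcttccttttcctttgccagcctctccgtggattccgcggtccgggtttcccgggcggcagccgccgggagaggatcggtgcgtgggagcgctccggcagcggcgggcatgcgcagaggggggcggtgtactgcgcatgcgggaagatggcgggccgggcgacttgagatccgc

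Both strands of 22199 promoters of protein-coding genes were searched for the motifs. The search covered 7 promoters of 6 E2F genes, as E2F5 and E2F8 had no sequence in the set. The E2F element TTTGGCGC was present in the promoters of E2F1 and E2F2 and in 0.815% of all promoters. The related TTTCGCGC was in none of the E2F promoters searched and in 0.712% of all. Apart from the forms named here, no variant of the E2F element was searched for. TTTCGCGG, a motif chosen after the sequences were seen, was present in E2F1, E2F2 and E2F3 and in 0.523% of all promoters. TTGGCGC, which lies within TTTGGCGC, was chosen in the same way and was found in E2F1, E2F2, E2F3 and E2F7 and in 3.83% of all. In the 3 activators TTTCGCGG came first, and TTGGCGC began 18 bases after the first base of TTTCGCGG in E2F1, 16 in E2F2 and 15 in E2F3. The pair spanned 37 to 13 bases before the start in E2F1, 57 to 35 in E2F2 and 39 to 18 in E2F3. A motif match is a description of the letters and not evidence of binding.

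Other motifs were spread through the family without a shared pattern. The GC box GGGCGG, bound by SP and KLF factors, was in the promoters of E2F1, E2F3, E2F4, E2F6 and E2F7 and in 56.3% of all. CCAAT, bound by NF-Y, was in E2F1, E2F3 and E2F7 and in 34.7% of all, with 4 copies each in E2F7 and in the promoter at the first start of E2F3. The E-box CACGTG, bound by MYC and MAX, was found once in the E2F promoters searched, at a second annotated start of E2F3 (8.34% of all promoters). The cell cycle element TTTGAA was found in E2F3 (12.4% of all) and the ETS element CCGGAAG in E2F7 (12.8% of all). The palindromic NRF1 element (1.5% of all) and ACTACA of the HCFC1 and THAP11 element (7.93% of all) were found in none of the E2F promoters searched.

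WDR5 was called at every E2F gene in both genotypes. All 8 genes had a gene-end summit in KO, against 53.4% of all protein-coding genes (exact 95% interval 52.7 to 54.1%), and all 8 had one in WT, against 50.0% (49.3 to 50.7%). The share of all genes with one in both genotypes was 46.4% (45.8 to 47.1%). A gene-end summit in KO and none in WT was found at 0 of the 8 genes and 6.99% of all genes, and the converse at 0 of the 8 and 3.51% of all. The intervals here cover counting error only, and the 8 genes were chosen with such results known. All 8 pairs of best summits, the highest-scored in each genotype, lay within 500 bp of each other, against 40.1% of all genes and 86.3% of the 9307 genes that, like these 8, had a summit in both genotypes.

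The strength of the summits spread widely within the family, and it had nearly the same order in both lists. The score used is the −log10 q that the authors' peak caller gave to each summit, and rank 1 is the highest score in a list. In KO the order was E2F3, E2F2, E2F6, E2F8, E2F1, E2F7, E2F4 and E2F5, with scores from 1192 at E2F3 to 4.04 at E2F5. In WT it was E2F3, E2F2, E2F6, then E2F1, E2F7 and E2F8 at the same score, E2F4 and E2F5, with scores from 1127 to 10.0. That shared WT score of 12.8 was held by 91 summits of the list, so the WT list does not order these 3 genes. The KO and WT lists held 21055 and 17660 summits with median scores of 6.28 and 6.53, so ranks and scores are read within a list and not between genotypes. The median rank of the family was 2433 in KO, against 6353 over all 10707 genes with a gene-end summit, and 3690 in WT, against 5945 over 10011 genes. Summits among the 1000 highest stood at 3 E2F genes in each genotype, E2F3, E2F2 and E2F6, and at 4.63% of all genes in KO and 4.45% in WT. Among genes with a gene-end summit the shares were 8.66% in KO and 8.9% in WT. The family was chosen partly for the high summit of E2F3, so the median ranks and this count are descriptions only.

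**Figure D1:**
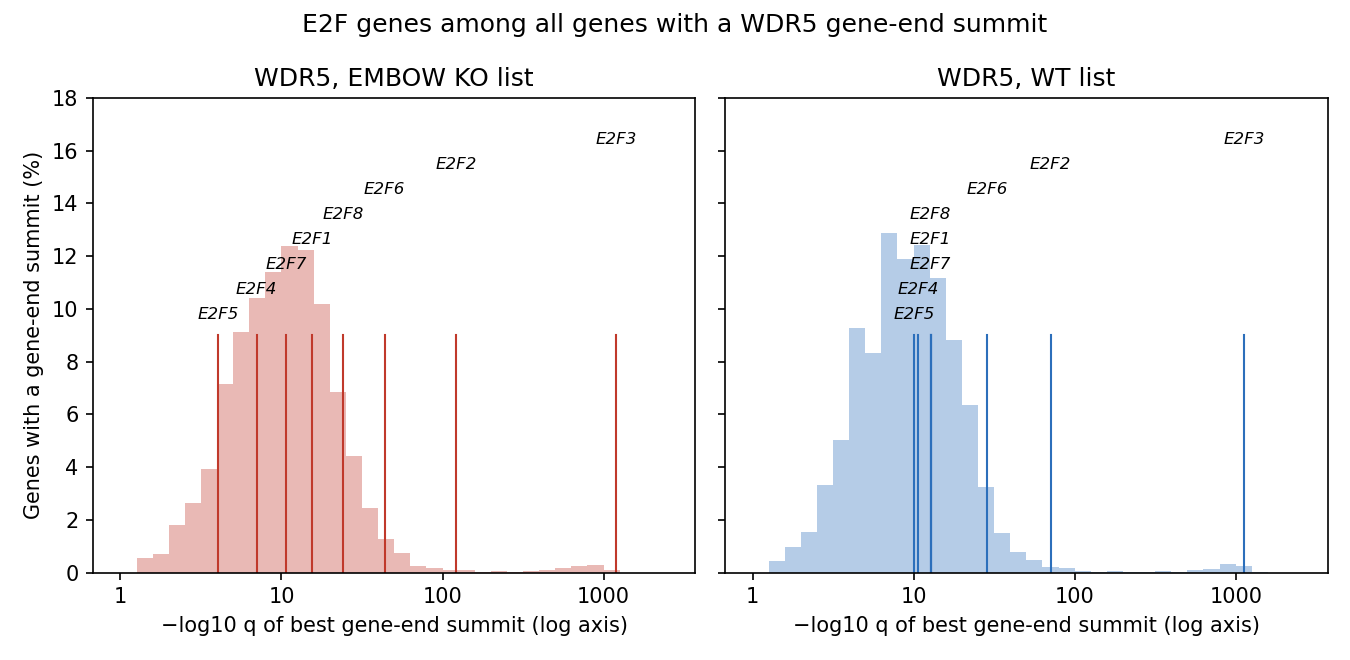
Scores of the best gene-end summit of each E2F gene (lines of no set height, labelled in order of score) over the distribution of all protein-coding genes with a gene-end summit (bars, % of genes), KO left and WT right; the x axis is the −log10 q on a log scale. E2F3 stands above 1000 in both lists, in a small separate group, while E2F5 has the lowest score of the family in each.

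Among the activators, E2F3 carried one of the strongest WDR5 summits of the genome. Its KO summit at position 20402014 of chromosome 6 had a score of 1192 and ranked 2, and its WT summit at 20402004 had a score of 1127 and ranked 14. The summits lay 135 bp and 125 bp inside the annotated start, 10 bp apart. Both fell just downstream of the promoter stretch printed above and 1600 bp (KO) and 1610 bp (WT) before the second annotated start of E2F3, which lies at 20403614. Scores of 500 or more, a threshold chosen after the distribution was seen, were reached by gene-end summits of 81 genes in KO and 85 in WT, which is 0.757% and 0.849% of the genes with a gene-end summit. E2F3 was the only E2F gene among them, and 43 of the 81 and 45 of the 85 encoded cytosolic ribosomal proteins. LOC124901482, a RefSeq protein-coding model on the opposite strand, spans the E2F3 start from 20400741 to 20402772 and shares these summits. KO held 2 further summits at E2F3. One lay 503 bp upstream of the start with a score of 16.0 (rank 3269), and one lay inside the gene, 1946 bp from its 3′ end, with a score of 2.42 (rank 18875). The nearest WT summits to these were 628 bp and 42883 bp away, so the upstream one lies near the WT summit at the start and the other has no WT summit near it.

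E2F2 had the second strongest summits of the family and the only EMBOW-F summit. On chromosome 1 the EMBOW-F summit at 23531057 lay 176 bp inside the E2F2 start, 15 bp from the KO WDR5 summit at 23531072 and 6 bp from the WT WDR5 summit at 23531051. The WDR5 summits scored 121 in KO (rank 132) and 70.9 in WT (rank 155). The EMBOW-F summit scored 3.86 and ranked 27722 of 93143, a score it shared with 8264 summits of that list in all, itself included. In that list 38.6% of the summits scored as high or higher, the median score was 3.25, and the E2F2 summit did not reach a q of 1e-05. An EMBOW-F gene-end summit was found at 1 of the 8 E2F genes and at 1.40% of all genes. At the other E2F genes the nearest EMBOW-F summit lay between 19094 bp (E2F7) and 2433793 bp (E2F1) from a gene end.

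Gene-end summits in all 3 lists were held by 20 protein-coding genes, 0.0998% of those examined. Among these 20, which were looked up after the values were seen, E2F2 had the highest WDR5 rank in KO and in WT. TULP4 came next, at ranks 554 in KO and 335 in WT, and EZH2, the methyltransferase of Polycomb repressive complex 2 and a known E2F target, stood at ranks 2035 in KO and 471 in WT. The EMBOW-F summit lay within 500 bp of both WDR5 summits at 14 of the 20 genes. The EMBOW-F summit of EZH2 scored 2.39, and 1 of the 20 genes had one with a q of 1e-05 or less.

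E2F1, the founding activator, had its KO and WT summits on the same base, 33686244 of chromosome 20, 141 bp inside the start. The scores were 15.5 in KO (rank 3484) and 12.8 in WT (rank 3690). A shared base was seen at 67 of the 9307 genes with summits in both genotypes, or 0.72%. At the other end of E2F1, which lies 129 bp from the end of the neighbouring gene NECAB3, a summit was called 1186 bp away in KO, just outside the window (score 6.37), and 844 bp away in WT, just inside it (score 1.5, rank 17464). These 2 summits lay 342 bp apart.

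The repressors E2F4 and E2F5 had the weakest summits of the family. At E2F4 on chromosome 16 the KO summit at 67192306 scored 7.0 (rank 9600) and the WT summit at 67192303 scored 10.7 (rank 4898), 151 bp and 148 bp inside the start. The WT list held a further summit 7367 bp upstream, with a score of 3.97, that lies within the gene EXOC3L1. At E2F5 on chromosome 8 the KO summit at 85177761 scored 4.04 (rank 14840) and the WT summit at 85177843 scored 10.0 (rank 5400). They lay 607 bp and 689 bp inside the low-coordinate end of the gene, on the side of the divergent transcript gene E2F5-DT, farther from the end than the best summits of the other members. A best summit with a q of 1e-05 or less was found at 7 of the 8 genes in KO, E2F5 being the exception, and at all 8 in WT. Over all genes the shares were 44.5% and 39.7%. Among genes that, like these 8, had a gene-end summit, 8909 of 10707 in KO and 7953 of 10011 in WT met that limit. A further KO summit with a score of 4.04 lay 5644 bp beyond the other end of E2F5, in RBIS.

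E2F6 and the atypical members each had 1 KO summit, 1 WT summit and no EMBOW-F summit within 10 kb. At E2F6 on chromosome 2 the KO summit at 11465799 scored 43.7 (rank 369) and the WT summit at 11465811 scored 28.5 (rank 627), 362 bp and 350 bp inside the start. At E2F7 on chromosome 12 the KO summit at 77065249 scored 10.7 (rank 6134) and the WT summit at 77065238 scored 12.8 (rank 3690), 320 bp and 331 bp inside the start. At E2F8 on chromosome 11 the KO summit at 19241404 scored 24.0 (rank 1382) and the WT summit at 19241526 scored 12.8 (rank 3690). They lay 251 bp and 129 bp inside the high-coordinate end, and at 122 bp this was the widest distance between genotypes in the family.

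**Figure D2:**
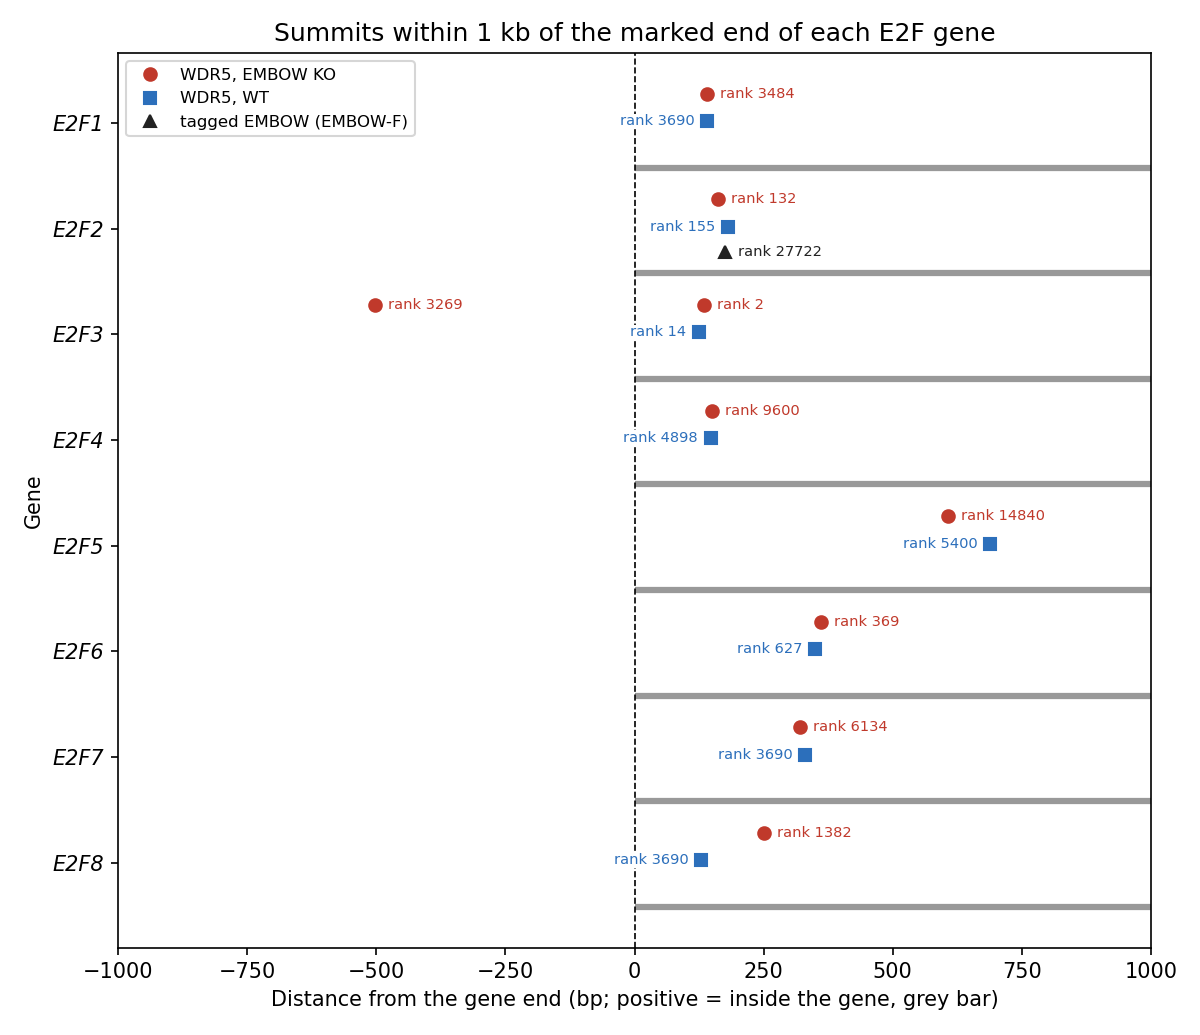
Summits within 1 kb of the marked end of each E2F gene, as distance from that end in bp (positive values are inside the gene, drawn as a grey bar), with KO circles above WT squares and the EMBOW-F triangle below, each labelled with its rank in its list. Best KO and WT summits lie inside the gene at all 8 genes, and the EMBOW-F summit of E2F2 lies between its WDR5 summits.

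Summit positions were close between genotypes. The distance between the best KO and WT summits was 0 bp at E2F1, 3 bp at E2F4, 10 bp at E2F3, 11 bp at E2F7, 12 bp at E2F6, 21 bp at E2F2, 82 bp at E2F5 and 122 bp at E2F8. The median was 11.5 bp over the 8 genes and 78 bp over all 9307 genes with a summit in both genotypes, and 6 of the 8, against 25.2% of all, were within 25 bp. In all, 12 KO summits, 10 WT summits and 1 EMBOW-F summit lay within 10 kb of an E2F gene. The next protein-coding genes on either side were NECAB3 and PXMP4 for E2F1, ASAP3 and ID3 for E2F2, MBOAT1 and CDKAL1 for E2F3, EXOC3L1 and ELMO3 for E2F4, LRRCC1 and CA13 for E2F5, PPIAP60 and GREB1 for E2F6, CSRP2 and NAV3 for E2F7, and CSRP3 and NAV2 for E2F8. Apart from NECAB3 at the 3′ end of E2F1, none of them had an end within 1 kb of a gene-end summit of an E2F gene.

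The summits lay downstream of annotated starts, where most WDR5 summits of other genes also lie. At the 6 E2F genes with a start in the promoter table the best summit was downstream of it in both genotypes, 135 to 362 bp in KO and 125 to 350 bp in WT. Over all protein-coding genes with a summit within 1 kb of such a start, the best summit was downstream at 77.5% of 7776 genes in KO and 78.1% of 7295 in WT. Its median position was 187 bp downstream in each genotype, with quartiles of 86 and 332 bp in KO and 92 and 336 bp in WT. E2F3, E2F1, E2F4 and E2F2 fell within these quartiles in both genotypes, E2F7 in both, and E2F6 beyond the upper one.

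**Figure D3:**
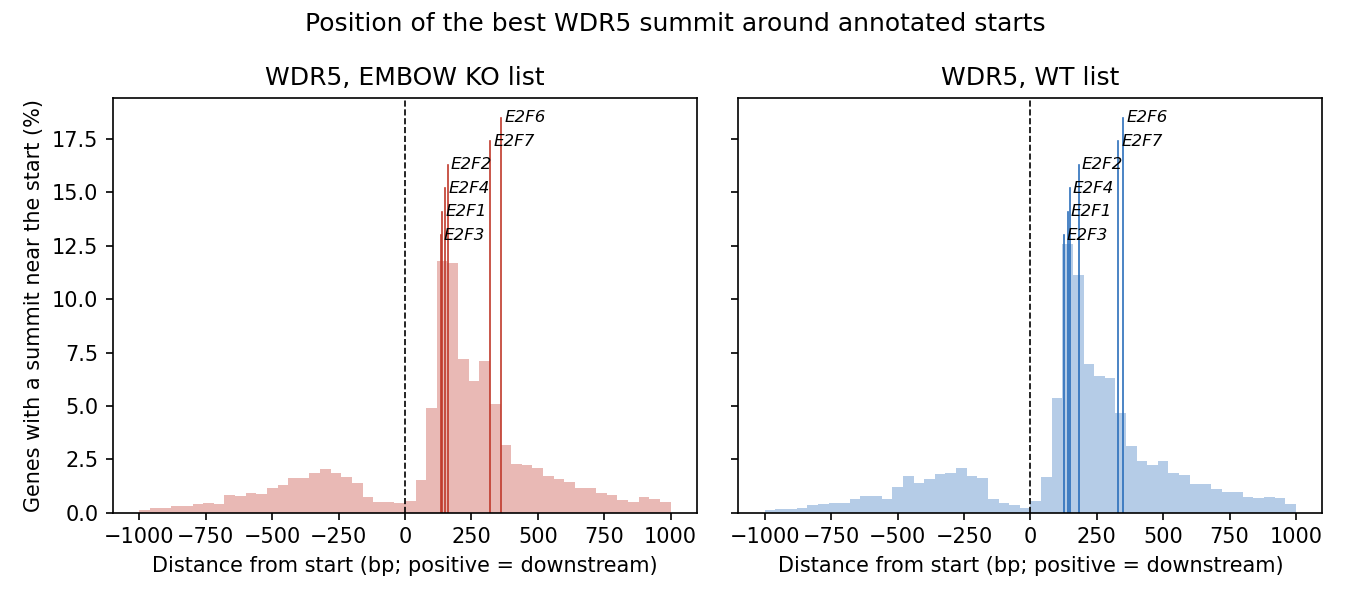
Distance of the best WDR5 summit from the annotated start, in bp (positive values are downstream), for all genes with a summit within 1 kb of the start (bars, % of genes) and for 6 E2F genes (lines, whose height has no meaning), KO left and WT right. The E2F summits lie 125 to 362 bp downstream, on the same side of the start as the main peak of the distribution, and E2F6 lies beyond the upper quartile. The distribution has a dip at the start itself.

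Most genes around E2F in the cell cycle were marked in both genotypes, the exception being the dimer partners, with 2 of 3 genes in KO and 1 of 3 in WT. Over 7 lists of partners and targets, 67 of 75 genes had a gene-end summit in KO and 70 in WT, against 53.4% and 50.0% of all protein-coding genes. Of the 75, 66 were marked in both (46.4% of all genes), 1 in KO and not in WT (6.99% of all), and 4 in WT and not in KO (3.51% of all). No likeness or difference between these lists was tested. Of the DP genes, whose proteins pair with E2F1 to E2F6, TFDP2 had summits of rank 156 in KO and 236 in WT. The scores of these summits were 90.1 and 50.9. TFDP1 had a summit in KO, at 113585362 of chromosome 13 with a score of 6.95 (rank 9623), while the nearest WT summit lay 94383 bp from an end of the gene. TFDP3 had none in either. All 3 pocket protein genes were marked in both, RB1 at ranks 1553 in KO and 7380 in WT, RBL1 at 6687 in KO and 5081 in WT, and RBL2 at 5558 in KO and 6467 in WT.

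Among the 8 MuvB and MYB partners, 7 were marked in KO and 8 in WT, where 53.4% (KO) and 50.0% (WT) of all genes were. RBBP4, a histone-binding subunit, ranked highest in KO, at 363 (1937 in WT), and LIN37 had a WT summit alone, the nearest KO summit being 3309 bp from an end. Among the 8 G1 cyclins and kinases, which phosphorylate pocket proteins, 7 were marked in KO and 8 in WT, with the same shares over all genes. CDK2 led in KO at rank 2122 (1709 in WT), and CCND3 had a WT summit alone, its KO summit being 1196 bp from an end and so just outside the window. CDK inhibitor genes were marked in 6 of 7 cases in each genotype, against 53.4% of all genes in KO and 50.0% in WT. CDKN2C, which restrains CDK4 and CDK6, had ranks of 130 in KO and 144 in WT, and CDKN1A had no gene-end summit in either. The gene FAF1 had the same ranks as CDKN2C in both lists, so the summits may not be particular to CDKN2C.

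Partners of E2F6 in repression were marked in 10 of 11 cases in KO and 11 in WT, against 53.4% and 50.0% of all protein-coding genes. RYBP ranked 806 in KO and 409 in WT, WDR5 itself ranked 8004 in KO and 3592 in WT, and L3MBTL2 had a WT summit alone, the nearest KO summit being 7901 bp from an end. Of 35 S-phase E2F targets, 32 were marked in KO and 33 in WT, beside those same 53.4% and 50.0%. SLBP, which binds histone mRNA, led in KO at rank 155 (444 in WT). POLA1, a subunit of DNA polymerase alpha, had a WT summit with a score of 8.16, while the nearest KO summit lay 228564 bp from an end, and ORC1 and UHRF1 had none in either genotype. EZH2 was the 1 gene of the 75 with an EMBOW-F gene-end summit, a share near the 1.40% of all genes with one, so nothing is read from this count. As a check of the libraries, 9 of 10 genes taken as open in all cells were marked in KO (YWHAZ was not) and 10 in WT. Of 12 genes taken as silent in kidney lines, 3 were marked in each, namely APOA1, CD8A and KRT10. Over all genes the shares were 53.4% in KO and 50.0% in WT. Both lists were drawn up by name, and expression of their genes in these cells was not examined.

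**Figure D4:**
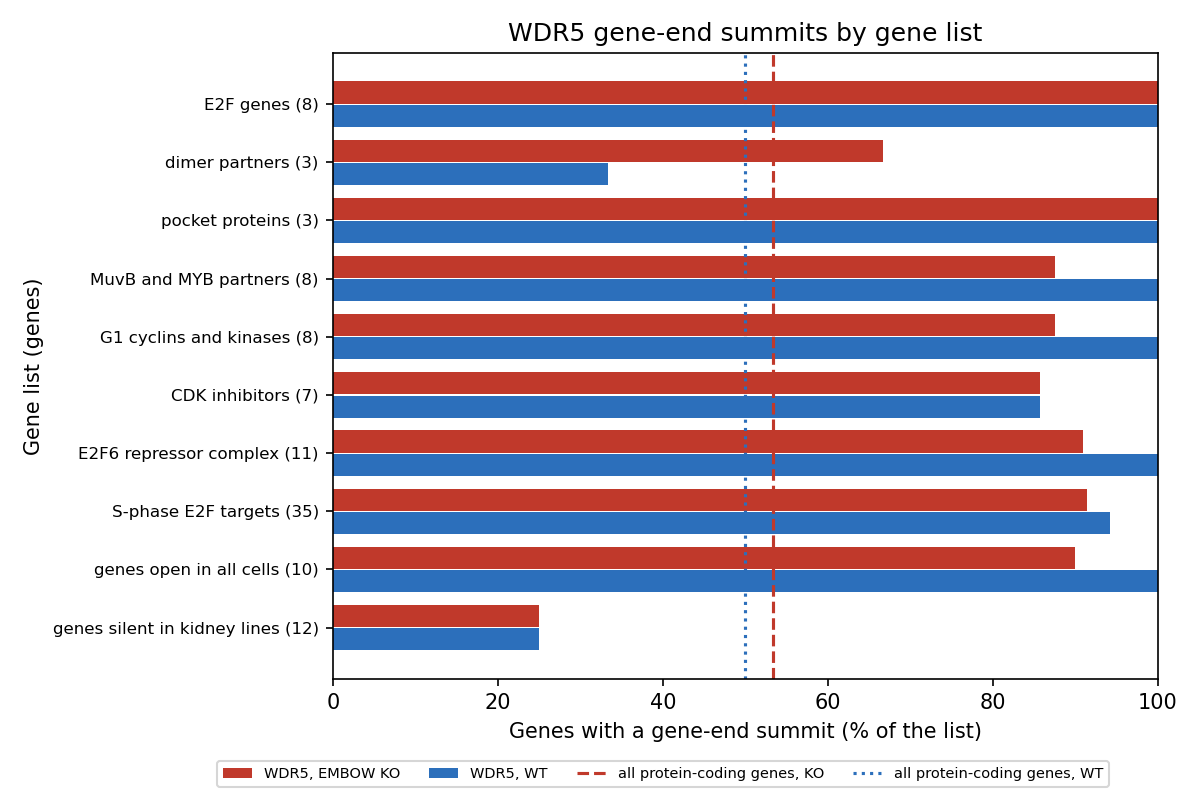
Share of each gene list with a WDR5 gene-end summit (bars, % of the genes given in brackets), KO above WT, with the share over all protein-coding genes as lines. The E2F genes and the pocket protein genes reach 100% in both genotypes, and the genes taken as silent stay at 3 of 12.

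The authors' deposited table of transcripts named as new WDR5 targets dependent on EMBOW, 18665 in all, held no transcript overlapping E2F1, E2F2, E2F3, E2F4, E2F6, E2F7 or E2F8. It held 8 transcripts overlapping E2F5, of which 2 had their 5′ end within 1 kb of an end of the gene. These were ENST00000520129.1, a model on the minus strand from 85177522 to 85178150 that covers both WDR5 summits, and ENST00000615071.1 at the other end. The latter lies within RBIS, a gene that overlaps that end of E2F5. A 5′ end from the authors' deposited table lay within 1 kb of a gene end at 1 of the 8 E2F genes and 10.3% of all protein-coding genes. The share of all genes overlapped by a listed transcript was not computed, so nothing is read from the overlap counts.

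By rank in both lists, the genes most like each E2F gene were named from the sum of the differences in rank percentile in KO and WT, a measure over 2 libraries. For E2F3 these were LOC124901482, which shares its summits, and CCT7, a chaperonin subunit gene at ranks 1 in KO and 10 in WT. For E2F2 they were CDKN2C and FAF1, both at ranks 130 in KO and 144 in WT, so these may be the same summits counted for both genes. For E2F6 they were MSL2 (382 in KO and 609 in WT) and SMARCC1 (389 in KO and 601 in WT). For E2F1 they were PEX2 and PANX1, for E2F4 EMC2 and C5orf22, for E2F5 EEF1AKMT1 and RABEP1, for E2F7 COL25A1 and CLHC1, and for E2F8 PMPCB and KCTD6.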

How the data were processed

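The series describes 10 ChIP-seq and input samples from micrococcal nuclease digested HEK293T nuclei, and the summit lists of 3 of them were used. Per the submitters' processing notes the build was hg38 and the tools were MACS2 2.2.7.1, deepTools 3.5.1 and Bowtie2 2.4.5, with no roles or settings. The deposited lists hold 1 bp summits with a score read as the −log10 q of MACS2, because the lowest values lie just above that of a q of 0.05 (1.30). The input behind each list and any pooling are not stated in the labels or files. The EMBOW-F list belongs to the series as a whole and was matched to the only tagged-EMBOW precipitation in the labels. Read depth is unknown, so the length of a list may reflect depth.

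Gene ends came from RefSeq (GRCh38.p14), and summits were assigned within 1 kb with pandas 2.3.3 and numpy 2.4.6 in Python 3.11.15, with scipy 1.17.1 for intervals and matplotlib 3.10.9 for plots. Tied scores share the best rank. bedtools 2.31.1 gave the same number of genes with a gene-end summit in each list. A simulation recovered 200 of 200 summits planted within the window, 1 per gene, at genes far from other genes. It did not cover overlapping or closely spaced genes, or several summits at 1 gene. The chromosome name of 1 line of the authors' transcript list was repaired. Genes named were all 8 E2F genes, neighbours and genes sharing a summit, the highest KO member, single-genotype members and unmarked members of each list, WDR5, and the genes most like each E2F gene. The members and lists were chosen with earlier results of these data known. With 1 library per group no test was run.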

Additional observations from a re-analysis of the deposited data

How the results depend on the processing

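The window around gene ends was set to 500 bp, 2 kb or 5 kb. Separately, lists were cut to equal length or to summits of q 1e-05 or less. Under each setting, 7 or 8 of the 8 E2F genes kept a WDR5 gene-end summit in KO and in WT. Over all protein-coding genes the shares at 500 bp were 44.8% in KO and 41.6% in WT. They were 57.0% and 53.4% at 2 kb, and 60.6% and 57.0% at 5 kb. With lists of equal length they were 51.0% and 50.0%, and at the stricter q 44.5% and 39.7%. E2F5 was the gene lost, in both genotypes at 500 bp, where its summits are too deep in the gene, and in KO at the stricter q. At that q, 1 E2F gene (E2F5) was therefore marked in WT and not in KO, and 0 had an EMBOW-F summit, because the E2F2 one scored below the limit. With that q, 7 of the 8 pairs remained, and with pair distances of 250 and 1000 bp all 8. The shares of all genes marked in WT alone, or paired, were not computed under these settings. Nothing is therefore read from those counts. For the lists of partners, targets and checks, all 36 values under the 2 kb window and the stricter q were within 1.5 times the reported count. No paired analysis was possible because each group has 1 library. Depth limits all statements on absent summits: the lists hold no counts, and a summit missing from a list was not called there, which does not show that the protein was absent.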

Other observations

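The pair of TTTCGCGG and TTGGCGC, both on either strand and at any spacing, was present in the promoters of 12 protein-coding genes, 0.0541% of all promoters. The pair was noticed in the E2F sequences first, so the E2F genes in this list are no support for it. The 12 genes were AK4, AUNIP, CDC25A, E2F1, E2F2, E2F3, LOC124901482, NTN4, RBM23, SIAH1, TCF23 and UNG. CDC25A, a phosphatase that activates CDK2, and UNG, a uracil DNA glycosylase, are S-phase genes of the target list, and LOC124901482 overlaps E2F3. Without E2F1, E2F2, E2F3 and LOC124901482, a WDR5 gene-end summit was found at 5 of the other 8 genes in KO and 6 in WT. Of the 315 genes with TTTCGCGC or TTTGGCGC in the promoter, 73.7% had one in KO and 69.8% in WT, against 55.4% and 52.0% of the 15843 genes with a promoter sequence. Base composition was not matched between these sets.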
